A study of Mus musculus with 6 samples.

Results

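Axon guidance ligands and receptors are the secreted and membrane-bound cues, and the cell-surface proteins that read them, which steer growing axons and migrating cells. The genes were chosen by symbol from the gene table: ephrins and Eph receptors, semaphorins, plexins and neuropilins, Slits and Robo receptors, and netrins with the Dcc, Neo1 and Unc5 receptors. This gave 58 of 14665 genes, 32 of them ligands and 26 receptors. Ntng2, Ntn5 and Unc50 were left out, the last because it belongs to another family, and Dcc was not analysed here. RNA was sequenced from C17.2 cells, a mouse neural stem cell line derived from neonatal cerebellum and immortalized with v-myc. The cells were grown in medium with 10% fetal bovine serum. The hypoxia/reoxygenation group (H/R, 3 libraries) spent 12 h in 5% O2, 5% CO2 and 90% N2 and then 48 h in standard oxygen, and the control group (3 libraries) was given no H/R. All 6 libraries come from this 1 line, and separate cultures are not described, so the tests measure only how far these libraries vary.

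In the ephrin system, ephrin-A ligands are held on the membrane by a lipid anchor and ephrin-B ligands by a transmembrane segment, and contact with Eph receptor tyrosine kinases on a neighbouring cell usually repels it. Secreted class 3 semaphorins bind neuropilins, which signal through A-type plexins, while the membrane-bound classes mostly bind plexins directly. Slits repel through Robo receptors, and netrins attract or repel through Dcc, neogenin and Unc5 receptors. Neural stem and progenitor cells use the same systems in positioning and migration.

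The promoters of the genes with the largest fitted rise and fall among the tested guidance genes (Sema7a and Plxna3), of the Eph receptor with the largest rise (Ephb6) and of the most abundant guidance gene per length in both groups (Sema3c) are shown because the results below turn on these genes. Each is 300 bases of the RefSeq table on GRCm38.p6, 250 before and 50 after the annotated start, read 5′ to 3′ on the plus strand, on which all of them are transcribed. Capitals mark ACGTG and GCGTG, the core letters of hypoxia response elements, and GGGCGG, the GC box, each on either strand; no capital base belongs to more than 1 motif. The windows are chr9:57939862-57940161 for Sema7a, chr6:41605261-41605560 for Ephb6, chrX:74328816-74329115 for Plxna3 and chr5:17574566-17574865 for Sema3c.
Sema7a: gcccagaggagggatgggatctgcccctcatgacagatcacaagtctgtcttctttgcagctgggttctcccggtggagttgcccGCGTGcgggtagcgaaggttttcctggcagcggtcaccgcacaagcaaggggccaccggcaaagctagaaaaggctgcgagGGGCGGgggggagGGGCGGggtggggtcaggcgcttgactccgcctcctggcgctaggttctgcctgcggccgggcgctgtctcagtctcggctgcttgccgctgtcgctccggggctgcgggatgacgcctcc
Ephb6: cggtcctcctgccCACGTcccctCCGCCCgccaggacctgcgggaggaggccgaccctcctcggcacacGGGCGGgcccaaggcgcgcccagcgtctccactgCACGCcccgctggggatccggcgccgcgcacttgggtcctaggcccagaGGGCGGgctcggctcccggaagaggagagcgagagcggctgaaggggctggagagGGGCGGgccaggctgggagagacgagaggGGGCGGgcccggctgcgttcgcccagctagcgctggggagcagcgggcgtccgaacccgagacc
Plxna3: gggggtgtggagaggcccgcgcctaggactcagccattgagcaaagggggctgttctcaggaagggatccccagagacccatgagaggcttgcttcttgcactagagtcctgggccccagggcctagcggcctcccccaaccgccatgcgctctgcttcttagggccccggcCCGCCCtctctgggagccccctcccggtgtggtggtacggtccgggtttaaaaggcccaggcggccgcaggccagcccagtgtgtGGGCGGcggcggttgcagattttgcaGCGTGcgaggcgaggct
Sema3c: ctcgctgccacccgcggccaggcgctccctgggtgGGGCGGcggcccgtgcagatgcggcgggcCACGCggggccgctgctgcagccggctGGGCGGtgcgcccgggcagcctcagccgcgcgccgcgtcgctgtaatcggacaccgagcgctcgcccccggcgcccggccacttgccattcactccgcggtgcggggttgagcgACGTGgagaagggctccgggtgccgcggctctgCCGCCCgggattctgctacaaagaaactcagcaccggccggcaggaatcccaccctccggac

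The letters ACGTG occurred in the Ephb6 and Sema3c windows, once each, and GCGTG occurred once in each of the 4 windows. The Ephb6 window held 5 GC boxes, the Sema3c window 3, and the Sema7a and Plxna3 windows 2 each. By symbol, 51 of the 58 genes matched the promoter table, with 67 promoters. Of these, 19.4% held ACGTG, 41.8% GCGTG and 76.1% GGGCGG, beside 19.6%, 32.4% and 35.7% of all 32851 promoters. These are matches of letters and were not tested as binding sites.

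Gene counts per library were 15639751 to 16830389 in the H/R group and 7267809 to 8371882 in the control group, so that depth moved with the group. The libraries expressed Nes (331 ± 19.2 CPM in H/R and 196 ± 16.3 CPM in control libraries), Vim (1329 ± 34.1 CPM in H/R and 1221 ± 51.2 CPM in control libraries) and Sox2 (31.0 ± 0.516 CPM in H/R and 29.1 ± 5.05 CPM in control libraries; SD, n = 3 each), which mark neural stem cells; here CPM is the read count scaled to library size with factors of the trimmed mean of M values (TMM). Of the 9 neural stem cell and radial glia markers tested, 2 rose (Nes and Notch1) and 2 fell (Sox9 and Msi2). Sox9 averaged 1.79 CPM in H/R and 8.28 CPM in control libraries (log2 -2.19). Its control libraries were far apart, at 1.29, 8.57 and 15.0 CPM, and control replicate 1 lay below all H/R libraries. Msi2 averaged 34.9 CPM in H/R and 52.2 CPM in control libraries (log2 -0.58). Sox1, Pax6, Prom1, Fabp7 and Hes5 were not analysed here, and Slc1a3 had 0 to 10 reads a library. Summed markers of neurons were 33.7 to 37.9 CPM in H/R and 73.3 to 81.1 CPM in control libraries, mostly Map2. Of the 12 listed, 5 were analysed and 1 passed the filter on low counts, and Tubb3 averaged 0.206 CPM in H/R and 0.179 CPM in control libraries. Summed astrocyte markers were 14.7 to 19.2 CPM in H/R and 86.4 to 179 CPM in control libraries, mostly Aldoc, with 4 of 7 analysed and Gfap at 0 in the control libraries. Summed fibroblast and pericyte markers were 5724 to 7121 CPM in H/R and 6192 to 8889 CPM in control libraries, with 8 of 9 analysed. Most of this was Col1a1, at 4135 CPM in H/R and 4319 CPM in control libraries. Of the 6 tested, none rose and 2 fell, Acta2 (log2 -1.12) and Pdgfrb (log2 -0.36), where 18.8% of all tested genes rose and 19.0% fell. Thy1 had 1 read, in control replicate 3. The part of these differences in the results below was not tested. In bulk RNA, fewer cells of a type and less RNA per cell cannot be told apart.

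Of the 58 guidance genes, 45 passed the filter and were tested with edgeR within the fit of all 11104 genes. After H/R, 17 rose and 5 fell at an adjusted p under 0.05, and 23 did not pass. The share that rose was 37.8%, against 18.8% of all tested genes, and the share that fell was 11.1%, against 19.0%. The median log2 fold change was 0.29 over the tested guidance genes and 0.01 over all tested genes. All 3 H/R libraries lay above all 3 control libraries for 20 of the 45, against 25.7% of all genes, and below them for 7, against 24.0%. With the criteria of the study (at least a 2-fold change and p under 0.05 before adjustment), 4 rose (Ephb6, Sema6b, Sema7a and Ntn4), against 5.82% of all genes, and 3 fell (Sema3c, Plxna3 and Plxnb1), against 5.37%. The same 17 and 5 genes were called when the H/R libraries were thinned to 8205446 to 8208831 counts.

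**Figure D1:**
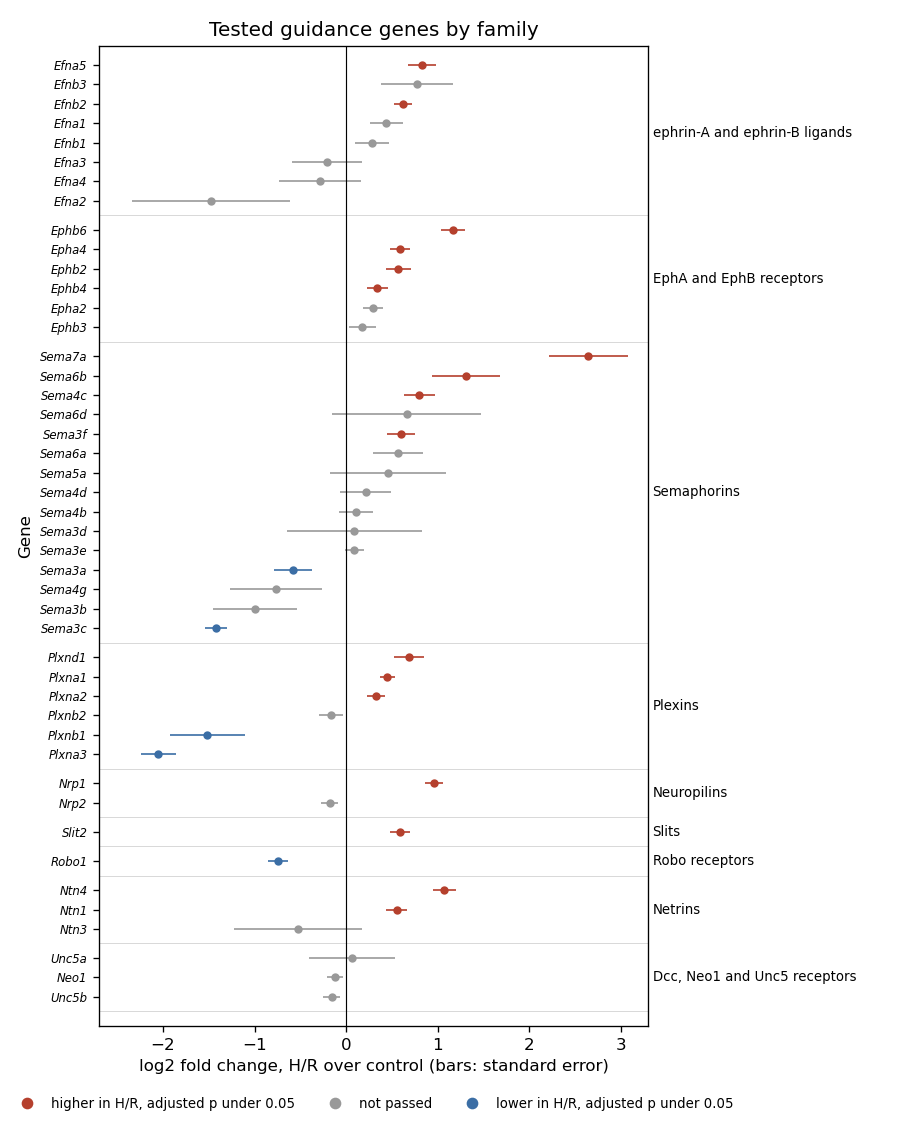
Log2 fold change of H/R over control (x axis) for each of the 45 tested guidance genes (y axis), grouped by family, with the standard error as bars; red points passed the test as higher in H/R, blue points as lower, grey points did not pass. Ephrins and Eph receptors hold 6 of the 17 rises and none of the 5 falls.

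**Figure D2:**
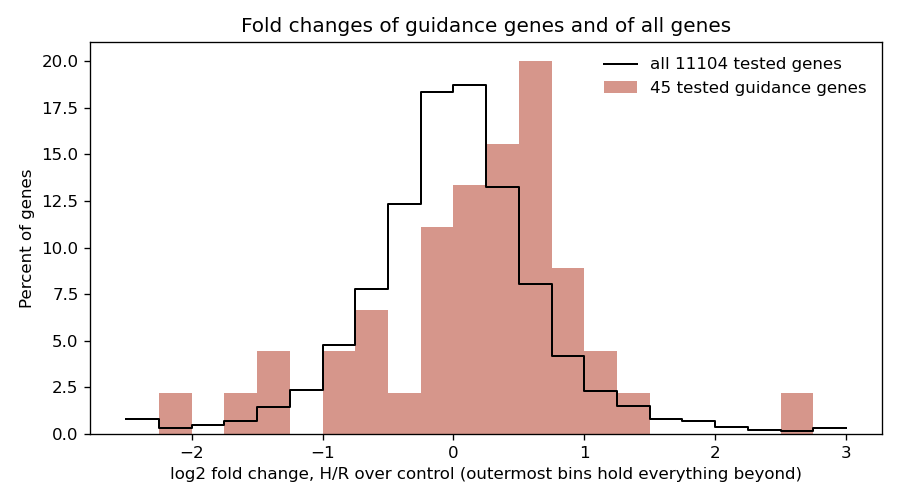
Percent of genes (y axis) per bin of log2 fold change, H/R over control (x axis), for the 45 tested guidance genes (bars) and all 11104 tested genes (line). The guidance genes are most frequent at 0.5 to 0.75, with 20.0% of them there, against 8.06% of all genes.

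Scaling bears on direction. Without TMM factors, which were 1.07 to 1.08 in H/R and 0.92 to 0.938 in control libraries, the median over all genes was 0.22 on the log2 scale, and rises made up 74.4% of all calls, against 49.7% with them. The guidance genes then gave 23 rises and 4 falls with a median of 0.51. Their median lay 0.28 above that of all genes in both scalings. Leaving out the factors shifts all genes by nearly the same amount, so this distance could hardly change and is no check of the scaling.

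Ephrins and their receptors moved in 1 direction among those that passed the test. Of 8 ephrins, 2 rose, and of 6 tested Eph receptors, 4 rose; none fell (42.9% and 0.0% of these 14, against 18.8% and 19.0% of all tested genes), also at an unadjusted p under 0.05 (0 with edgeR) and with DESeq2 (0). Efnb2, which encodes the transmembrane ligand ephrin-B2, was the most abundant ephrin per length and had 196, 211 and 210.3 CPM in H/R libraries, against 135, 148 and 117 CPM in control libraries. Every H/R library lay above every control library. It rose by a log2 fold change of 0.62 (SE 0.10, adjusted p = 0.000329). Efna5, an anchored ligand studied in retinal mapping, averaged 30.5 ± 0.467 CPM in H/R and 17.2 ± 1.88 CPM in control libraries (SD, n = 3 each), and rose by 0.83 on the log2 scale. The other 6 ephrins had log2 fold changes from -1.47 (Efna2) to 0.77 (Efnb3) and did not pass. Among them Efna1, a ligand of EphA2, averaged 20.6 ± 2.63 CPM in H/R and 15.2 ± 1.88 CPM in control libraries (adjusted p = 0.0751), and it passed without control replicate 1 (adjusted p = 0.0452). Efna1, Efna3 and Efna4 lie side by side on chromosome 3, and exons of Efna3 and Efna4 share 14.1% and 10.5% of their bases with an antisense gene on the opposite strand. The strand setting of the counts is not given in the sources used here, so reads of such partners cannot be told apart.

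Among Eph receptors the largest rise was that of Ephb6, a member whose kinase domain is inactive and whose promoter is printed above. It had 95.6, 88.4 and 68.8 CPM in H/R libraries, against 36.4, 40.1 and 35.9 CPM in control libraries. The lowest H/R library stood well above the highest control library. The rise was 2.25-fold (log2 1.17, SE 0.14, adjusted p = 2.48e-05). Epha2, the most abundant Eph receptor per length, had 156, 159 and 152 CPM in H/R libraries, against 111, 121 and 149.8 CPM in control libraries. The groups did not overlap, although control replicate 3 came close to the H/R libraries. Its log2 fold change was 0.29 (SE 0.11, adjusted p = 0.0565), and without control replicate 3 it was 0.42 (adjusted p = 0.00357).

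Epha4, a receptor for both ephrin classes, rose by 0.59 on the log2 scale and Ephb2, which helps to guide commissural axons, by 0.57. Ephb4, the receptor of ephrin-B2 in vessels, averaged 98.7 ± 4.00 CPM in H/R and 77.8 ± 9.47 CPM in control libraries, a rise of 0.34. The Ephb4 call (adjusted p = 0.0261) was lost without H/R replicate 1, H/R replicate 2 or control replicate 2, with adjusted p = 0.102, 0.0805 and 0.137. Ephb3 had a log2 fold change of 0.18 (SE 0.15) and did not pass. Summed over the family, Eph receptors had 547 ± 29.7 CPM in H/R and 395 ± 27.6 CPM in control libraries (SD, n = 3 each). Summed ephrins had 287 ± 4.93 CPM in H/R and 194 ± 14.0 CPM in control libraries (SD, n = 3 each). Most of the ephrin sum was Efnb2, at 206 CPM in H/R and 133 CPM in control libraries. The median log2 fold change was -0.21 over the 5 ephrin-A genes and 0.62 over the 3 ephrin-B genes. Epha1, Epha7 and Epha8 had at most 2 reads in any library and were not tested.

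**Figure D3:**
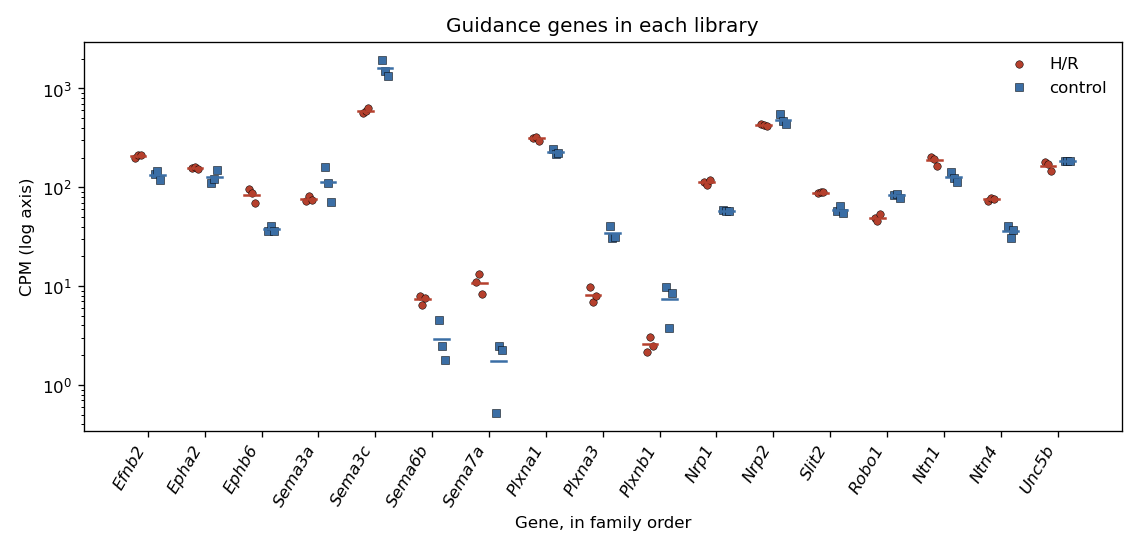
CPM on a log axis (y axis) for the 17 guidance genes described library by library (x axis), with 3 H/R libraries as circles at the left of each gene and 3 control libraries as squares at the right; the short lines are group means. All H/R points lie below all control points for Sema3c, Plxna3, Plxnb1, Nrp2, Robo1 and Unc5b, and among the genes with H/R above control Sema7a shows the widest gap.

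The semaphorins, the largest family with 19 genes and 15 tested, had 4 that rose (26.7%, against 18.8% of all tested genes) and 2 that fell (13.3%, against 19.0%), 1 of them Sema3a, whose call was lost in 7 of 16 alternatives. Their summed level was 1118 ± 20.0 CPM in H/R libraries and 2073 ± 377 CPM in control libraries (SD, n = 3 each). The difference in level was that of Sema3c: summed without it, the family had 520 ± 27.2 CPM in H/R and 477 ± 71.4 CPM in control libraries.

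Sema3c encodes a secreted class 3 semaphorin that attracts cortical axons and neural crest cells. It had 566, 595 and 631 CPM in H/R libraries, against 1938, 1507 and 1343 CPM in control libraries. All H/R libraries were far below the lowest control library, and control replicate 1 was the highest. Sema3c fell to 597 ± 32.5 CPM in H/R, against 1596 ± 307 CPM in control libraries, 2.67-fold lower (log2 -1.42, SE 0.12, adjusted p = 1.80e-06). Per kilobase of exon it made up 54.1% ± 2.99 of the semaphorin level in H/R and 79.2% ± 1.58 in control libraries, so it stayed the most abundant semaphorin in both groups.

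**Figure D4:**
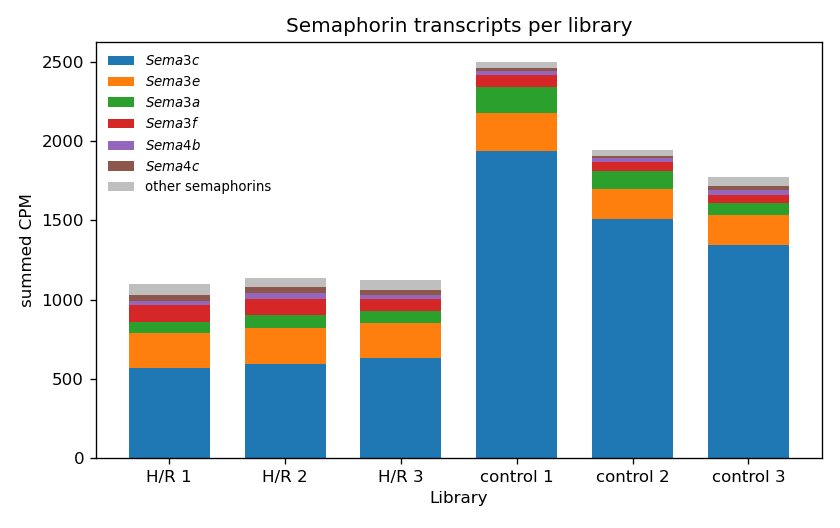
Summed CPM of the semaphorins (y axis) in each of the 6 libraries (x axis), 3 H/R at the left and 3 control at the right, stacked by gene. The Sema3c segment is 566 to 631 CPM in H/R and 1343 to 1938 CPM in control libraries, while the stack of all other semaphorins is 489 to 541 CPM in H/R and 432 to 559 CPM in control libraries.

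The other secreted semaphorins differed among themselves. Sema3f, which repels through neuropilin-2, averaged 96.1 ± 15.6 CPM in H/R and 63.3 ± 12.8 CPM in control libraries and rose by 0.60 on the log2 scale (adjusted p = 0.00776). Sema3a, the classical collapse-inducing cue read by neuropilin-1, had 72.4, 80.9 and 74.6 CPM in H/R libraries, against 159, 110.5 and 70.3 CPM in control libraries. The control libraries were far apart and the lowest of them lay under all H/R libraries. Its fall of 0.58 on the log2 scale (adjusted p = 0.0422) was lost in 5 of the 6 fits that left out a library, all but that without control replicate 3. In those 5 fits adjusted p was 0.119, 0.0673 and 0.128 without H/R replicates 1, 2 and 3, and 0.165 and 0.0923 without control replicates 1 and 2. Sema3e, a ligand that binds plexin D1 without a neuropilin, averaged 222 ± 1.76 CPM in H/R and 208 ± 28.4 CPM in control libraries and did not pass (log2 0.09, SE 0.10). Sema3b and Sema3d were low, at 1.85 and 1.17 CPM in H/R and 3.71 and 1.11 CPM in control libraries, and did not pass. Sema3a, Sema3c, Sema3d and Sema3e all lie on chromosome 5. Of these 4, Sema3c fell, and so did Sema3a in the unstable call above, where 19.0% of all tested genes fell. Sema3d and Sema3e each had a log2 fold change of 0.09, so a shared fall was not seen.

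Sema7a, the semaphorin held by a lipid anchor, which signals through integrins and plexin C1, showed the largest fold change of the 45 tested guidance genes. It had 11.1, 13.2 and 8.36 CPM in H/R libraries, against 0.516, 2.47 and 2.25 CPM in control libraries. Read counts behind these were 202, 222 and 142 in H/R libraries and 4, 19 and 15 in control libraries. All H/R libraries were several times higher than any control library. The rise was 6.27-fold (log2 2.65, SE 0.43, adjusted p = 0.000333), and the log2 fold change ran from 2.20 to 3.01 over 16 alternatives. Plxnc1, the plexin for this ligand, had 3 reads in all H/R and 0 in all control libraries.

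Among transmembrane semaphorins, Sema6b, of the class that binds A-type plexins, had 7.86, 6.48 and 7.65 CPM in H/R libraries, against 4.51, 2.47 and 1.80 CPM in control libraries. The groups were apart at a low level. The rise was 2.48-fold (log2 1.31, SE 0.37, adjusted p = 0.0135), and the call was lost without H/R replicate 1 (adjusted p = 0.0546) and without H/R replicate 3 (adjusted p = 0.05004). Sema4c, a ligand of plexin B2, averaged 34.2 ± 1.42 CPM in H/R and 19.6 ± 4.04 CPM in control libraries and rose by 0.80; 7.27% of its exon bases overlap a gene on the opposite strand. Of the class 4 to 6 genes that did not pass, log2 fold changes ran from -0.76 (Sema4g) to 0.66 (Sema6d). Among the fits that left out a library, Sema4d and Sema6a passed only in that without control replicate 3, with log2 fold changes of 0.73 (adjusted p = 0.0101) and 0.94 (adjusted p = 0.01001). Sema3g, Sema4a, Sema4f and Sema6c had at most 8 reads in any library and were not tested.

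The plexins, the signalling receptors of the semaphorins, split. Of 6 tested, 3 rose and 2 fell, where 18.8% of all tested genes rose and 19.0% fell. Plxna1, a co-receptor with neuropilins and the most abundant plexin per length, had 318, 326 and 295 CPM in H/R libraries, against 244, 219 and 224 CPM in control libraries. Every H/R library was above every control library, and the rise was 0.45 on the log2 scale (SE 0.09, adjusted p = 0.00109). Of its exon bases, 10.7% overlap an antisense gene. Plxnd1, the receptor of Sema3e, rose by 0.69 with 70.3 ± 7.96 CPM in H/R and 43.7 ± 10.8 CPM in control libraries. Plxna2 rose by 0.33 (adjusted p = 0.0208), a call lost without H/R replicate 1 (adjusted p = 0.0512) or H/R replicate 2 (adjusted p = 0.107).

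Plxna3, which pairs with neuropilin-2 in the response to Sema3f, went the other way. It had 9.79, 6.95 and 7.94 CPM in H/R libraries, against 40.3, 30.9 and 31.1 CPM in control libraries. Every H/R library was far below the lowest control library. The fall was 4.14-fold (log2 -2.05, SE 0.19, adjusted p = 4.47e-06), the largest among the tested guidance genes. Plxnb1, the receptor of Sema4d, had 2.15, 3.09 and 2.47 CPM in H/R libraries, against 9.80, 3.77 and 8.53 CPM in control libraries. Control replicate 2 lay close to the H/R libraries, though the groups did not overlap. Plxnb1 was 2.86-fold lower (log2 -1.52, SE 0.41, adjusted p = 0.0110). Plxnb2, the second most abundant plexin per length in both groups, averaged 109 ± 13.2 CPM in H/R and 122 ± 19.9 CPM in control libraries and did not pass (log2 -0.17, SE 0.13; 0.05 without TMM factors). The summed level of the plexins was 635 ± 36.2 CPM in H/R and 541 ± 25.3 CPM in control libraries. Plxna4, Plxnb3 and Plxnc1 had at most 19 reads in any library and were not tested.

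Of the neuropilins 1 rose and 1 did not pass, where 18.8% of all tested genes rose and 19.0% fell. Nrp1, the receptor of Sema3a that also binds VEGF, had 113, 106.5 and 119 CPM in H/R libraries, against 59.0, 57.8 and 57.0 CPM in control libraries. The replicates were tight and the groups wide apart, with a rise of 1.95-fold (log2 0.96, SE 0.10, adjusted p = 9.45e-06). Nrp2, the receptor of Sema3f and the more abundant neuropilin, had 434, 430.5 and 419 CPM in H/R libraries, against 552, 464 and 438 CPM in control libraries. All H/R values were lower than all control values, by a margin smaller than the spread of the control libraries. Nrp2 did not pass (log2 -0.18, SE 0.09, adjusted p = 0.147), passed without control replicate 3 (log2 -0.25, adjusted p = 0.0421), and had a log2 fold change of 0.03 without TMM factors. Per kilobase, Nrp1 made up 24.2% ± 1.32 of the neuropilin level in H/R and 12.7% ± 1.12 in control libraries (SD, n = 3 each). The summed CPM of both was 541 ± 5.74 in H/R and 543 ± 60.7 in control libraries, a ratio of 1.00 with TMM factors and 1.16 without them.

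In the Slit and Robo system the 1 tested ligand rose and the 1 tested receptor fell. Rises made up 18.8% and falls 19.0% of all tested genes, and single genes give no pattern of the system. Slit2, a repellent of commissural axons, had 87.2, 88.9 and 89.1 CPM in H/R libraries, against 57.5, 64.2 and 54.5 CPM in control libraries. H/R libraries were nearly identical to each other and all above the control libraries. The rise was 0.59 on the log2 scale (SE 0.10, adjusted p = 0.000667). Robo1, a receptor of Slit2, had 48.7, 45.7 and 54.0 CPM in H/R libraries, against 84.3, 86.3 and 77.4 CPM in control libraries. All H/R libraries were below all control libraries, and the fall was 0.74 on the log2 scale (SE 0.11, adjusted p = 0.000179). Slit3, Robo2 and Robo3 had at most 10 reads in any library and were not tested, so that Slit2 and Robo1 made up 98.3% ± 0.549 and 98.6% ± 0.855 of their families per kilobase in H/R, and 95.1% ± 1.13 and 99.4% ± 1.07 in control libraries.

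Of the 3 netrins 2 rose, and none of the 3 tested receptors passed the test. Among all 11104 tested genes, 18.8% rose, 19.0% fell and 6908 genes did not pass either. Ntn1, the founding netrin of commissural guidance, had 205, 192 and 164 CPM in H/R libraries, against 144, 123 and 113 CPM in control libraries. The groups did not overlap, and the rise was 0.56 on the log2 scale (SE 0.11, adjusted p = 0.00192). Ntn4, a netrin that binds laminin in basement membranes, had 73.1, 78.2 and 76.7 CPM in H/R libraries, against 40.9, 30.7 and 36.7 CPM in control libraries. Its H/R libraries were close together and all well above the control libraries. The rise was 2.11-fold (log2 1.08, SE 0.13, adjusted p = 2.52e-05). Summed, the netrins had 264 ± 18.6 CPM in H/R and 165 ± 18.9 CPM in control libraries. Ntn3 averaged 1.21 CPM in H/R and 1.73 CPM in control libraries and did not pass.

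Of the netrin receptors, Unc5b, a dependence receptor that mediates repulsion, had 179, 171 and 145 CPM in H/R libraries, against 186, 183 and 184 CPM in control libraries. All H/R libraries were below the control libraries, and H/R replicate 3 was the lowest. In the edgeR test as described and with DESeq2 0 of the 3 receptors passed, and 0 had an unadjusted p under 0.05. The log2 fold change of Unc5b was -0.16 (SE 0.10, adjusted p = 0.221), and 0.06 without TMM factors; with length and GC offsets, alone and with the replicate block, it passed as lower in H/R (lowest adjusted p = 0.0187). Neo1, which encodes neogenin, a receptor of netrins and of repulsive guidance molecules, averaged 213 ± 13.6 CPM in H/R and 232 ± 12.7 CPM in control libraries (log2 -0.12, SE 0.09), with a log2 fold change of 0.09 without TMM factors. Unc5a averaged 4.02 CPM in H/R and 3.87 CPM in control libraries and did not pass. The summed level of the 3 receptors was 382 ± 16.6 CPM in H/R and 420 ± 15.0 CPM in control libraries, a ratio of 0.91 with TMM factors and 1.06 without them.

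Length and GC, which were not used to choose the genes, were shifted at the median but varied widely. The tested genes ran from 1599 (Efna4) to 25433 (Slit2) exonic bases and from 39.2% (Sema3d) to 63.5% GC (Sema6b). The tested guidance genes with an annotated length (44) had a median of 6997.5 exonic bases and 56.3% GC, against 4620.5 bases and 49.5% over all tested genes with one. Across these 44 genes, log2 fold change had a Pearson correlation of -0.12 with log2 length, 0.06 with GC and 0.03 with level, given as descriptions over genes that share the same libraries.

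Other genes of the guidance pathways were read from lists. These were chosen with earlier results of these data known, so their shares are descriptions only. Of 60 other guidance cues and receptors, 21 were tested, of which 9 rose (42.9%, against 18.8% of all tested genes) and 3 fell (14.3%, against 19.0%). Cxcl12, a chemokine that guides migrating neurons, was at 38.0 ± 0.475 CPM in H/R and 9.94 ± 4.39 CPM in control libraries (log2 1.92). Smo, the signal transducer of hedgehog, rose by 0.70 and Fzd3, a Wnt receptor of axon tracts, by 1.23. Those that fell were Bsg (log2 -0.83), a chaperone of lactate transporters, Flrt1 (log2 -3.87), of a family that binds Unc5 receptors, at 0.369 CPM in H/R and 5.64 CPM in control libraries, and Met (log2 -0.37), the receptor of hepatocyte growth factor.

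Of 73 listed cytoplasmic effectors of guidance receptors, 62 table lines were tested, of which 17 rose (27.4%, against 18.8% of all tested genes) and 13 fell (21.0%, against 19.0%). Dock5, an exchange factor of Rac, rose by 0.61, Rras, a GTPase switched off by plexins, by 0.89, and Sos1, an exchange factor of Ras, by 0.54. Pak3, a kinase downstream of Rac and Cdc42, fell by 0.86 on the log2 scale, Tiam2, an exchange factor of Rac, by 0.65, and Plcg1, a phospholipase, by 0.57. The list had a median log2 fold change of 0.07.

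Of 20 listed proteases and partners that cleave guidance proteins, 17 were tested, of which 7 rose (41.2%, against 18.8% of all tested genes) and 3 fell (17.6%, against 19.0%). Mmp14, a membrane-bound metalloprotease, rose by 0.76, Adam10, which sheds ephrins, by 0.65, and Adam9 by 0.59. Timp3, an inhibitor of metalloproteases and no protease itself, was at 549 ± 20.6 CPM in H/R and 1372 ± 51.2 CPM in control libraries (log2 -1.32). Ncstn, a subunit of gamma-secretase, fell by 0.38 on the log2 scale and Rhbdl2, a rhomboid protease, by 1.83, at 0.687 CPM in H/R and 2.48 CPM in control libraries.

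The lncRNA table, counted apart from the genes, held 61 transcripts annotated beside 29 guidance genes, 50 of them overlapping the gene on its own strand. Of the 16 tested, none rose, against 2.67% of 6779 lncRNAs, and 1 fell, against 2.26%; 4 had an unadjusted p under 0.05, and DESeq2 called 2, both lower. The transcript that fell was ENSMUST00000170348 (chr5:17574765-17578178, plus strand, the printed start being the base before its first). It overlaps exons of Sema3c and starts within the Sema3c window printed above, before the RefSeq start. It had 67.5, 45.9 and 75.2 CPM in H/R libraries, against 236, 179 and 221 CPM in control libraries, on the scale of the lncRNA table. All H/R libraries were far below the control libraries (log2 -1.75, SE 0.26, adjusted p = 0.000551). It shares exon sequence with Sema3c and is not a separate measurement of it.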

How the data were processed

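RNA depleted of rRNA was sequenced from 3 H/R and 3 control libraries. After trimming (cutadapt 1.9.3) and alignment to the mm10 genome (HISAT2 2.0.4), the authors deposited raw counts per gene (HTSeq 0.9.1), counts per lncRNA transcript and counts of circRNA junction reads (STAR 2.5.1b). Left unused were the fold changes and p-values of the authors (edgeR 3.16.5) and 18 further per-sample columns. The annotation release and strand setting are not given in the sources used here. Each table was tested on its own with edgeR 4.0.16 in R 4.3.3: filterByExpr, TMM, a two-sided quasi-likelihood test, and Benjamini-Hochberg adjustment over all features, with an adjusted p under 0.05 as threshold. The common coefficient of variation of genes was 0.144, and the fit was tested on simulated data. An exact permutation test of 3 against 3 libraries cannot go below p = 0.1. Reads carried no molecular identifiers, so precision rests on the spread between libraries, which exceeded sampling noise (chi-square per degree of freedom 7.83 to 25.1). Coordinates and lengths come from GENCODE vM21, which held 57 of the 58 genes, all but Ntn3.

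The genes and lists were chosen with earlier results of these data known. Library values are given for genes past the threshold with at least a 2-fold change and an average of at least 1 CPM, and for the most abundant gene per kilobase of each family. From each list, up to 3 genes per direction with the smallest adjusted p are named. Library values of Sema3a and Nrp1 were added after their values were seen. Alternatives were DESeq2 1.42.0, the edgeR exact test, other size factors, filters and thresholds, thinned H/R libraries, length and GC offsets, the replicate block and leaving out each library.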

Additional observations from a re-analysis of the deposited data

How the results depend on the processing

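Of the 22 calls, 18 held under all 16 alternative fits, and Ephb4, Plxna2, Sema6b and Sema3a lost theirs in at least 1. No called gene changed direction in any of them. Of the 23 tested genes that did not pass, 10 passed in at least 1 alternative, among them Epha2 in 4 and Efna1 in 3. Besides the leave-one-out fits, the Ephb4 call was lost with length and GC offsets, alone and with the block, and the Sema3a call with those offsets alone and without scaling factors. Without scaling factors, 3704 genes rose and 1272 fell (2087 and 2109 with them), 7 guidance genes rose at the thresholds of the study (4 with them), 4 ephrins rose (2 with them), 1 semaphorin fell (2 with them) and the median log2 fold change of the guidance genes was 0.51 (0.29 with them). The ratio of summed CPM, H/R over control, was then 1.72 for ephrins, 1.61 for Eph receptors, 1.36 for plexins, 1.16 for neuropilins, 1.73 for Slits, 0.70 for Robo receptors, 1.86 for netrins, 1.06 for Neo1 and Unc5 receptors and 1.02 for all guidance genes, against 1.48, 1.39, 1.17, 1.00, 1.49, 0.60, 1.60, 0.91 and 0.87 with factors. With length and GC offsets the median of the guidance genes was 0.23, 1 semaphorin fell and 1 netrin receptor (Unc5b) fell, which it also did (1) with the replicate block and offsets together. At an adjusted p under 0.01, 1353 genes rose, and 3 guidance genes, 1 semaphorin and 1 plexin fell. With a fold change of at least 1.5 in place of 2, 12 guidance genes rose and 5 fell. DESeq2 called 2 lncRNAs lower. Leaving out 1 library at a time gave 14 to 20 guidance genes that rose and 4 to 6 that fell, a median log2 fold change of 0.20 to 0.40, 1 to 2 semaphorins that fell, 0 to 1 neuropilins that fell and 0 to 1 lncRNAs that rose; the neuropilin (Nrp2) and the lncRNA were called without control replicate 3. The labels number the replicates alike in both groups, but same-numbered libraries deviated together with correlations of only 0.0398, 0.00723 and 0.0283, although each library correlated best with its own number. With the replicate block, 2039 genes rose and 1998 fell, and the same 17 guidance genes rose and 5 fell. The limits are the 3 libraries per group, the depth that differs between groups, the single line, the strand setting and the low counts of 13 guidance genes that could not be tested.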

Other observations

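Circular RNAs of the guidance genes were sparse. The junction table held 12 of them from 7 genes, none of which passed the filter on low counts, with 31 junction reads in the H/R and 17 in the control libraries, beside 2938 to 3335 junction reads of all circRNAs per H/R library and 1386 to 1846 per control library. The most often read was an exonic circle of Sema3c (chr5:17678312-17682083), with 5, 0 and 2 reads in H/R libraries and 5, 2 and 3 in control libraries. At such counts the circular RNAs were not tested for a difference.

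Replicates of the guidance genes averaging at least 1 CPM varied by a median coefficient of variation of 10.8% in H/R and 16.1% in control libraries, beside 8.98% in H/R and 14.3% in control libraries over all such genes.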
